A study of Drosophila melanogaster with 6 samples.

Results

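The Toll pathway of Drosophila was examined through 10 genes that run from its protease cascade to its NF-kappaB factors: SPE, psh, nec, Spn88Eb, spz, Tl, pll, cact, dl and Dif. Their probe sets were found by symbol or synonym among those that the platform annotation pairs with exactly 1 gene (Spn88Eb is CG6687), which gave 11 of the 14010 probe sets of the array. The gene pll has 2 probe sets and each other gene has 1. Expression was measured in whole bodies of 4-day-old virgin Canton-S males, a wild-type laboratory strain. Exposed males met a virgin female for 5 min, and those with robust courtship and no mating were collected. Unexposed males were mock aspirated, were not given a female and are described with no such choice, so that exposure and the choice of courting males cannot be told apart. Each of the 6 arrays (3 exposed, 3 unexposed) received RNA of 1 pool of about 12 males, and the exposed and unexposed arrays numbered alike, 1 to 3, form pairs 1 to 3.

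In Toll signalling, microbial molecules or microbial proteases set off a cascade of serine proteases in the haemolymph, which ends in the cleavage of the ligand Spatzle. Cleaved Spatzle activates the receptor Toll, and the kinase Pelle then brings about the destruction of the inhibitor Cactus, which frees the NF-kappaB factors Dorsal and Dif to enter the nucleus. In adult flies the pathway is known for the control of antifungal and antibacterial peptide genes in the fat body, and in the embryo for the dorsal-ventral axis. Serpins, which trap proteases, restrain the cascade.

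The deposited signals are intensities on a linear scale, 1 per probe set and array. The array medians lay between 107.4 and 132.6. Both arrays of replicate 1 stood apart from the other arrays. The 23 bacterial, mouse and yeast control probe sets, which have no counterpart in fly RNA, had medians of 80.1 on exposed 1 and 81.0 on unexposed 1, and between 22.9 and 31.3 on the other 4 arrays. The ratio of the 3′ to the 5′ signal of a transcript, which is high where RNA is broken or labelled incompletely, was 17.8 for actin on exposed 1, 5.79 on unexposed 1 and 2.19 to 2.36 on the others. For eIF-4a it was 11.3 on exposed 1, 2 on unexposed 1 and 1.65 to 1.95 on the others, and for GAPDH 5.80, 1.92 and 1.30 to 1.52. Within pair 1, then, the exposed array had the higher ratio for all 3 transcripts, and the part of this in the pair 1 differences given below was not tested. The methods name more than one array facility without saying which arrays came from which.

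**Figure D1:**
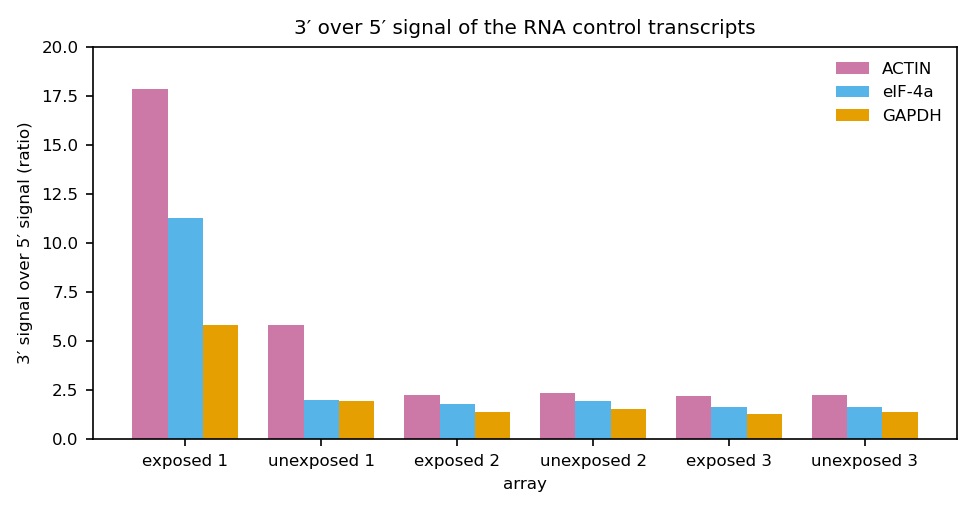
Ratio of the 3′ to the 5′ signal (y axis, no unit) of 3 control transcripts on each of the 6 arrays (x axis, pairs side by side). Exposed 1 reached 17.8 for actin, 11.3 for eIF-4a and 5.80 for GAPDH, and unexposed 1 reached 5.79 for actin, whereas the ratios of all 3 transcripts lay between 1.30 and 2.36 on the other 4 arrays.

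Male reproductive markers (10 genes, with log2 fold changes from -0.09 for the sperm gene dj to 0.06 for the seminal protein gene Acp76A) were bright on all arrays, with summed signals of 35330 to 38910 in exposed and 33020 to 40940 in unexposed pools, and none differed at an unadjusted p under 0.05. The summed signal of 5 fat body markers was 5849 to 6851 in exposed and 5718 to 7341 in unexposed pools, and that of 6 haemocyte markers was 772 to 1153 in exposed and 807 to 838 in unexposed pools. None of these 11 markers had an unadjusted p under 0.05. Of the fat body markers 4 passed the signal filter given below, with bmm (-0.19) and Lsp2 (0.14) at the ends of their range. Of the haemocyte markers 4 passed, with Pxn (-0.05) and Sr-CI (0.55) at the ends. Each marker gene is given by its brightest probe set. A dimmer one of apolpp, named with its value seen, had -1.17 (standard error 0.69), with both replicate 1 signals below the foreign control medians. The summed signal of 9 female markers (yolk, eggshell and vitelline membrane genes) was 7735 on exposed 1 and 7899 on unexposed 1, against 2476 and 2585 on the other exposed and 2387 and 2665 on the other unexposed arrays. Of these markers 7 passed the filter, with Cp18 (-0.45) and Yp1 (0.29) at the ends. Cp18, 1 of the 7, was lower at an unadjusted p under 0.05, against 2.12% of all probe sets tested. It reached a signal of 100 on 3 arrays (157.9 on exposed 1, 255.5 on unexposed 1 and 104.4 on unexposed 3). Its pass of the filter thus leaned on the unexposed pools. All marker values are RNA levels of whole bodies, in which fewer cells of a type and less RNA per cell cannot be told apart.

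The comparison of exposed with unexposed males was made on log2 signals by limma, a linear model over all probe sets, with the pair as a block. It covered the 8251 probe sets whose signal reached 100 on 3 arrays or more. Of the 11 Toll pathway probe sets, 8 passed this filter and 3 did not: those of Dif and dl and one of the pair for pll. Of these 8, 7 reached a signal of 100 on all 6 arrays. The pll probe set 142881_at passed through 1 exposed and 3 unexposed arrays, so that its pass leaned on the unexposed pools. The genes are described by their place in the pathway. In the RefSeq gene table, spz, SPE, nec, cact, Dif and pll each overlap another gene, and whether a probe set also reads that gene was not tested.

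SPE encodes the Spatzle-processing enzyme, the protease that cleaves the Toll ligand. Exposed pools 1 to 3 had signals of 984, 1167 and 1188, and unexposed pools 1 to 3 had 1556, 1449 and 1634. Every exposed pool lay below every unexposed pool. The means were 1113 ± 112 in exposed and 1546 ± 93.1 in unexposed pools (SD, n = 3 each). The log2 fold change was -0.48 (standard error 0.14, unadjusted p = 0.0191, adjusted p = 0.905 from limma), a level 1.39-fold lower in exposed males. Its 3 log2 ratios were -0.66, -0.31 and -0.46.

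The protease Persephone, product of psh, senses microbial proteases and danger signals upstream of SPE. Its signals were 134, 186 and 201 in exposed pools against 168, 143 and 187 in unexposed pools, and the groups overlapped. The exposed pool was lower in pair 1 (log2 ratio -0.33) and higher in pairs 2 and 3 (0.38 and 0.11). With a log2 fold change of 0.05 (95% interval -0.42 to 0.52), psh was the 1 member tested whose mean was above 0, and neither a level higher by 0.52 nor one lower by 0.42 lies outside the interval.

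The gene nec encodes Necrotic, a serpin that holds the Persephone branch in check. Its signals were 536, 1022 and 988 in exposed pools against 1023, 1402 and 1369 in unexposed pools. The highest exposed pool (1022) lay just under the lowest unexposed pool (1023), so the groups did not overlap, and the gap within a pair was far wider than this. Log2 ratios were -0.93, -0.46 and -0.47 in pairs 1 to 3. The log2 fold change of nec was -0.62 (standard error 0.16, unadjusted p = 0.0125, adjusted p = 0.905 from limma), or 1.54-fold lower, and it ranked 28 among the 8251 probe sets by p, before any other member.

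Spn88Eb, a second serpin gene of the list, had the lowest log2 fold change of the members. Exposed pools 1 to 3 gave signals of 1393, 488 and 416, and unexposed pools 1 to 3 gave 1363, 1529 and 1254. The exposed pools 2 and 3 were far below all unexposed pools, and exposed pool 1 was above 2 of the 3 unexposed pools. In log2 ratios this was 0.03 in pair 1, -1.65 in pair 2 and -1.59 in pair 3. The mean over the pairs was -1.07 (standard error 0.38, unadjusted p = 0.0411, adjusted p = 0.905 from limma), or 2.10-fold lower, at rank 142 of 8251 from the lowest. The study chose Spn88Eb on these same arrays, so its change is not independent evidence. By the study's real-time PCR, Spn88Eb was lower in samples used for the arrays but not in independently collected samples.

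Without replicate 1 the log2 fold change of Spn88Eb was -1.62, with an unadjusted limma p of 0.00024. It was -0.78 without replicate 2 and -0.81 without replicate 3, with unadjusted limma p-values of 0.132 and 0.18. The adjusted p of Spn88Eb lay between 0.118 and 1 over all alternatives. A limma term for the exposure effect of pair 1 against that of pairs 2 and 3, added after the data were seen, was 1.65 for Spn88Eb (standard error 0.22, unadjusted p = 0.00179, adjusted p = 0.0651). By this term, 194 of the 8251 probe sets (2.35%) passed at an adjusted p under 0.05, none of them a member, and 1339 (16.2%) had an unadjusted p under 0.05, among them 2 of the 8 member probe sets, those of Spn88Eb and pll (142881_at). Since replicate 1 has 1 array of each treatment, the term takes the spread of its arrays to be that of the others.

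The ligand gene spz had signals of 134, 371 and 370 in exposed pools and 184, 352 and 388 in unexposed pools. Both pools of replicate 1 were low, and exposed and unexposed pools of replicates 2 and 3 lay close together. Its log2 ratios were -0.46, 0.08 and -0.07, with a log2 fold change of -0.15 (95% interval -0.57 to 0.27, unadjusted p = 0.388), an interval that spans 0. Without replicate 1 the value was 0.01.

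Tl encodes Toll, the receptor of the pathway. It had signals of 104, 274 and 224 in exposed pools and 124, 330 and 317 in unexposed pools. The exposed pool was the lower of each pair, by log2 ratios of -0.25, -0.27 and -0.50, but the gap between replicate 1 and the other replicates was wider than that between treatments, and the groups overlapped. The log2 fold change of -0.34 (standard error 0.13) had an unadjusted p of 0.0496 and an adjusted p of 0.905 from limma. Its unadjusted p was 0.0503 without replicate 1, 0.169 without replicate 2 and 0.195 without replicate 3.

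Pelle, the kinase encoded by pll, has 2 probe sets, which differed from each other on the replicate 1 arrays. Probe set 142881_at had 96.9, 102 and 80.8 in exposed pools against 192, 114 and 102 in unexposed pools. It was lower in the exposed pool of each pair (-0.99, -0.17 and -0.33), with a log2 fold change of -0.50 (95% interval -1.03 to 0.04, unadjusted p = 0.0626). Pair 1 had the lowest ratio by far, and without replicate 1 the log2 fold change was -0.25.

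The second pll probe set, 142067_at, had 658, 24.4 and 13.0 in exposed pools against 578, 29.9 and 23.7 in unexposed pools. It thus stood near or below the foreign control medians (22.9 to 31.3) on the arrays of replicates 2 and 3 and far above them on those of replicate 1. With signals under an array's foreign control median set to that median, the replicate 1 arrays exceeded the others by 4.44 on the log2 scale, a lower bound, while for 142881_at this difference was 0.47. By the signals as deposited, of all 13966 probe sets that are not controls, 41 (0.294%) were at least 16-fold higher on the replicate 1 arrays, 142067_at among them. The log2 fold change of 142067_at, fitted with no filter on signal, was -0.33 (95% interval -0.99 to 0.34, unadjusted p = 0.252). The gene overlaps TfIIA-L in the RefSeq gene table.

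The gene cact encodes Cactus, the I-kappaB protein that holds Dorsal and Dif in the cytoplasm, and is itself a known target of Toll signalling. Its signals were 402, 493 and 486 in exposed pools and 425, 779 and 724 in unexposed pools. All exposed pools were below the unexposed pools of replicates 2 and 3, and unexposed pool 1 lay among the exposed pools. Log2 ratios were -0.08, -0.66 and -0.58, and the log2 fold change was -0.44 (standard error 0.17, unadjusted p = 0.0505, adjusted p = 0.905 from limma). Without replicate 1 it was -0.62, with an unadjusted limma p of 0.00875. Without replicate 2 and without replicate 3 it was -0.33 and -0.37, with unadjusted limma p-values of 0.249 and 0.187.

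Dorsal and Dif, the NF-kappaB factors at the end of the pathway, are encoded by the genes dl and Dif. Their probe sets were below the filter, so their values come from the fit over all 13966 probe sets, and a p from it does not enter the counts above. The dl signals were 37.4, 74.8 and 74.0 in exposed pools against 56.8, 95.6 and 119 in unexposed pools. Each exposed pool was below its partner, by log2 ratios of -0.60, -0.35 and -0.68, and the log2 fold change was -0.55 (standard error 0.15, unadjusted p = 0.0187, adjusted p = 0.92 from limma with no filter). Its unadjusted limma p was 0.272 with no replicate block, 0.0591 after median centring, 0.0633 with signals under 50 set to 50, and 0.0517 to 0.0896 with any 1 replicate left out. Both replicate 1 values of dl lay below the foreign control medians of their arrays (80.1 and 81.0).

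Dif had signals of 14.7, 85.0 and 75.1 in exposed pools and 35.9, 82.3 and 81.2 in unexposed pools. In pairs 2 and 3 the pools were nearly alike, at log2 ratios of 0.05 and -0.11. Both values of pair 1, which gave -1.29, were under the foreign control medians of those arrays. The log2 fold change was -0.45 (95% interval -1.31 to 0.40, unadjusted p = 0.222), and -0.03 without replicate 1.

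**Figure D2:**
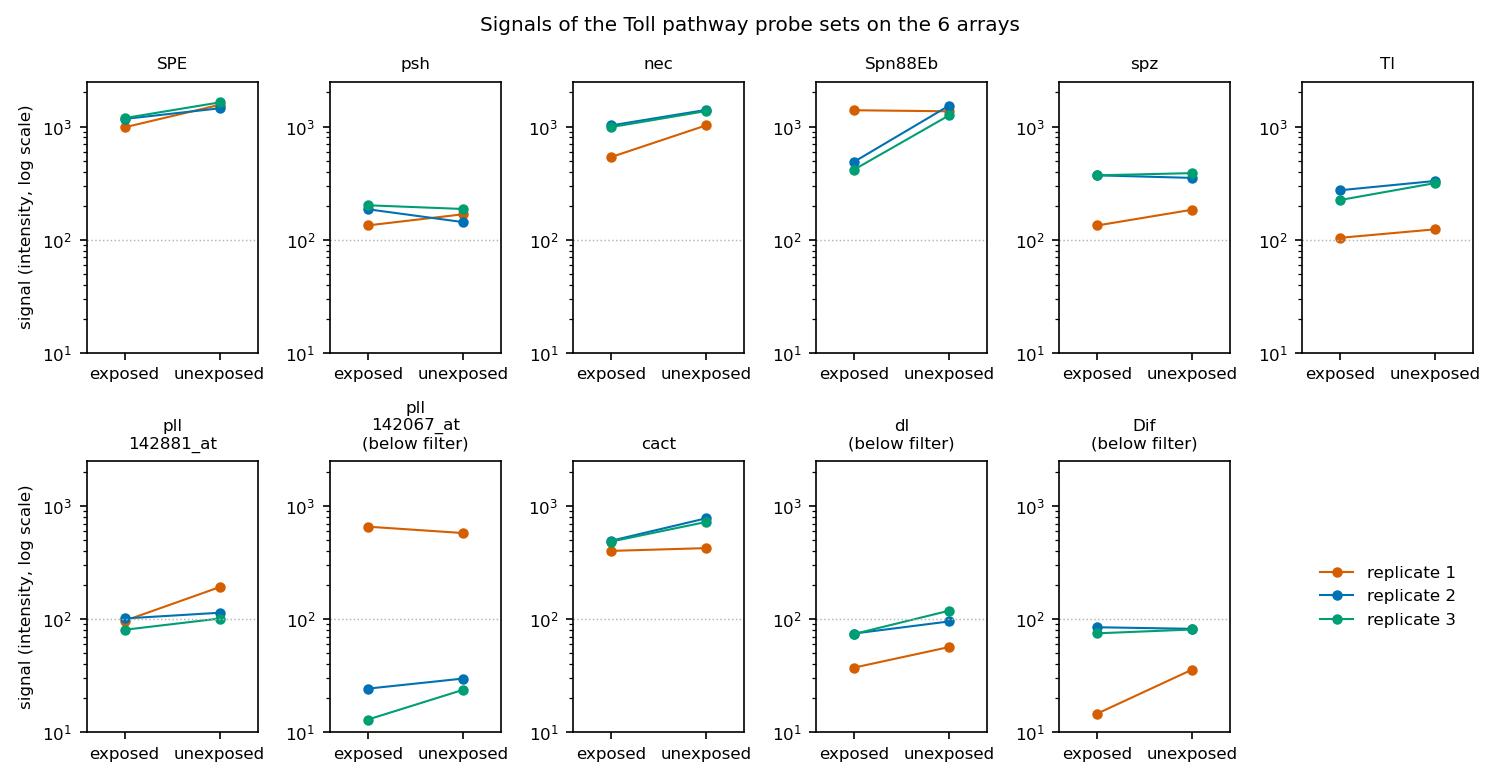
Signal of each of the 11 probe sets (y axis, intensity on a log scale) in exposed and unexposed pools (x axis), with a line joining the arrays of 1 replicate and a dotted line at the filter signal of 100. SPE and nec had all exposed pools below all unexposed pools, Spn88Eb was lower in exposed pools of replicates 2 and 3 only, and the pll probe set 142067_at had 658 and 578 on the replicate 1 arrays against at most 29.9 on the others.

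Taking the 8 probe sets that passed the filter as a group, 7 had a mean log2 ratio below 0, as did 5817 of all 8251 probe sets tested. By limma no member passed at an adjusted p under 0.05, nor did any of the 8251 probe sets (0%), and none of the members was among the 2 probe sets (0.0242%) with an unadjusted p under 0.001. At an unadjusted p under 0.05, 4 of 8 were lower (nec, SPE, Spn88Eb and Tl) and none was higher. Over all probe sets the share was 2.12% lower (175 of 8251) and 0.376% higher (31 of 8251). That balance over all probe sets turned with the scaling, to 95 lower and 135 higher after median centring and to 120 lower and 146 higher after quantile normalization, where 2 and 3 of the 8 members were lower and none was higher. The 10 genes were chosen with earlier results of these arrays known, and no test was made of the group. By Cyber-T, the paired test of the methods written anew, 5 of the 8 had an unadjusted p under 0.05. None had one under 0.001 and none an adjusted p under 0.05, where over all probe sets 318, 21 and 1 did. The recoded test used a window and a prior weight that the methods do not name, and gave Spn88Eb an unadjusted p of 0.00245. The study's own Cyber-T test gave Spn88Eb a p under 0.001, the study's threshold. The absence of members under 0.001 by Cyber-T thus holds for the recoded test only.

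The exposed pool was the lower one in all 3 pairs for 5 of 8 member probe sets (SPE, nec, Tl, cact and pll 142881_at), against 18.4% of all probe sets tested. Since 142881_at met the filter through the unexposed arrays, where it is higher, the count without it was 4 of 7. None was higher in all 3 pairs, against 6.23%. The exposed pools lay wholly below the unexposed pools for 2 of 8, SPE and nec, against 1.76%. The median log2 fold change was -0.46 for the member probe sets (-0.44 without 142881_at) and -0.09 over all probe sets tested. By pair, the medians of the members were -0.39, -0.29 and -0.47 and those of all probe sets -0.21, -0.08 and 0.05.

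**Figure D3:**
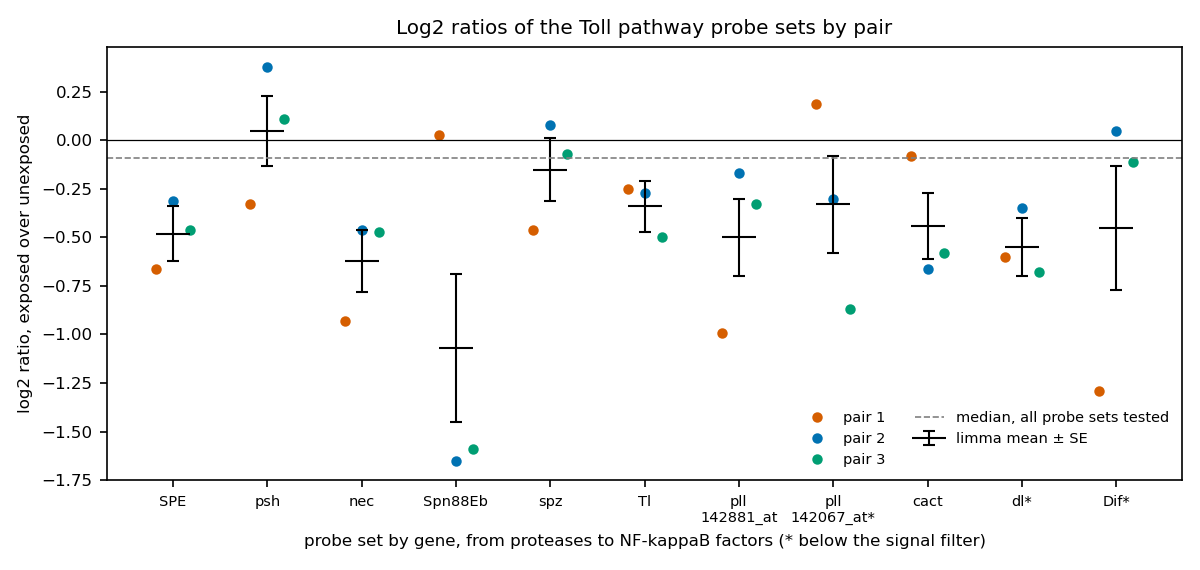
Log2 ratio of exposed over unexposed signal (y axis) for each probe set (x axis, from proteases to NF-kappaB factors), with points for pairs 1 to 3, black bars for the limma mean with its standard error, and a dashed line at -0.09, the median of all probe sets tested. SPE, nec, Tl, cact, dl and the pll probe set 142881_at were below 0 in all pairs, and the 3 ratios of Spn88Eb were 0.03, -1.65 and -1.59.

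With the block dropped or replaced, the arrays scaled differently or a replicate left out, these counts changed. With no replicate block none of the members had an unadjusted p under 0.05 and 10 of all probe sets were lower, and after centring each array on its median 2 members (nec and SPE) and 95 of all probe sets were lower. Leaving out replicate 2 or replicate 3 left 1 member, nec, at an unadjusted p of 0.0377 or 0.036, with 97 or 255 of all probe sets lower. Leaving out replicate 1 left 4, with cact in place of Tl, and 173 of all probe sets lower. With the replicate 1 arrays as a separate level in place of the block, 6 members (nec, SPE, Tl, Spn88Eb, cact and pll 142881_at) and 392 of all probe sets were lower, so the count over all probe sets moved with the setting as well.

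The members differed in how far the replicate 1 arrays stood from the others. Tl and spz were lower there by 1.32 and 1.24 on the log2 scale over both treatments, 2 of 8 member probe sets with a difference of at least 2-fold, against 37% of all probe sets tested. SPE and psh differed by -0.12 and -0.25, and nec by -0.67. Spn88Eb was higher by 0.80, which came from the exposed pool (1.63) and not from the unexposed one (-0.02). For cact the replicate 1 pool lay below its 2 fellows of the same treatment, by 0.82 in unexposed and by 0.28 in exposed males. Between replicates 2 and 3 the exposed pools of the 8 probe sets differed by at most 0.33 and the unexposed pools by at most 0.38, both smaller than the Spn88Eb differences in these pairs.

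Other genes of the pathway were taken from 3 lists. Of 37 genes, 29 had a probe set of their own and 12 passed the signal filter. None of the 12 had an unadjusted p under 0.05 in either direction, where over all probe sets tested 2.12% were lower and 0.376% higher. None in 12 is near these shares, and a difference from the members was not tested. The median log2 fold change of the 12, -0.09, was that of all probe sets tested. On the replicate 1 arrays 8 of the 12 were at least 2-fold lower, against 37% of all probe sets and 2 of 8 members. Among the recognition and protease genes (6 of 15 tested), the ends of the range were GNBP3, which encodes a receptor for fungal glucans, at 0.17 (standard error 0.19), and the serpin gene Spn27A at -0.25 (standard error 0.17), whose signals on both replicate 1 arrays were below the foreign control medians. Of related ligands and receptors, most of which were below the filter (2 of 12 tested), the Toll relative 18w had 0.01 (standard error 0.12) and Tollo had -0.06 (standard error 0.20). Of 10 adaptors and regulators 4 were tested. The genes tub, whose product links the Toll adaptor to Pelle, and Traf6 marked the ends of that list at -0.38 (standard error 0.26) and 0.46 (standard error 0.30), and pair 1 was farthest from 0 for both. Traf6 reached 100 on 4 arrays, among them all exposed pools, so that its pass of the filter leaned on the exposed pools. Its log2 ratio was 1.23 in pair 1, with a mean of 0.08 over pairs 2 and 3. The Traf6 signal on unexposed 1 (89.0) lay not far above the foreign control median of that array (81.0). The tub signal on exposed 1 (44.5) was below the foreign control median of that array (80.1), so its pair 1 ratio is not a measured size. The Toll adaptor gene Myd88 had signals of 111, 234 and 235 in exposed pools against 122, 250 and 246 in unexposed pools, a log2 fold change of -0.10 (standard error 0.12), and was chosen after its values were seen.

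The protease gene spirit, which acts upstream of SPE, was below the filter on both of its probe sets, and was chosen after its values were seen. The brighter, 142156_at, had 73.4, 61.0 and 67.7 in exposed pools against 87.6, 102 and 120 in unexposed pools. The dimmer, 141827_at, had 47.0, 44.5 and 33.8 in exposed pools against 87.2, 57.0 and 64.4 in unexposed pools. On each probe set all exposed pools lay below all unexposed pools, as did 124 of the 5715 probe sets below the filter (2.17%). On exposed 1 both probe sets were below the foreign control median (80.1), so the separation rests there on a value at background. For the brighter one limma gave -0.61 on the log2 scale (standard error 0.18, unadjusted p = 0.0249, adjusted p = 0.92 from limma with no filter).

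Downstream of the pathway, 4 of 10 listed target genes were measured by a probe set with 1 gene, and the study had chosen all 4 on these samples. Lower at an unadjusted p under 0.05 were 3 of them, against 2.12% of all probe sets tested. These were Mtk, encoding metchnikowin, with a log2 fold change of -1.49, Drs, encoding drosomycin, with -1.27, and BomS5, encoding a bomanin peptide, with -0.60. BomS2 had -0.24 (standard error 0.12). In pairs 1 to 3 the median of these 4 was -0.25, -0.95 and -1.53. Among the members, the ratios of Spn88Eb, cact and Tl were nearest 0 in pair 1, and those of SPE, nec, spz and pll 142881_at were farthest from 0 there. Leaving out 1 replicate gave log2 fold changes from -2.12 (without replicate 1) to -0.82 (without replicate 3) for Mtk and from -1.71 to -0.85 for Drs. Without replicate 3 the unadjusted limma p was 0.0969 for Mtk, 0.0583 for Drs and 0.0964 for BomS5, and without replicate 2 it was 0.0623 for Mtk and 0.0774 for BomS5. With no replicate block it was 0.139 for Mtk, 0.0621 for Drs and 0.139 for BomS5. By the study's real-time PCR, Mtk was lower in samples used for the arrays but not in independently collected samples. Of 13 genes of the parallel Imd pathway, 10 were tested. At an unadjusted p under 0.05, 1 of these was lower, against 2.12% of all probe sets. This was the NF-kappaB gene Rel (-0.56, standard error 0.13), which the study had also chosen on these arrays. Its unadjusted limma p was 0.121 with no replicate block, 0.0502 after median centring, 0.0553 without replicate 2 and 0.0551 without replicate 3. The list median was -0.08, and Fadd, encoding a death-domain adaptor, was highest at 0.13 (standard error 0.15), with both replicate 1 signals below the foreign control medians. Fadd reached a signal of 100 on 3 arrays (115.2 on exposed 2, 110.3 on exposed 3 and 118.8 on unexposed 2). Its pass of the filter thus leaned on the exposed pools. A difference between the Toll and the Imd genes was not tested.

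**Figure D4:**
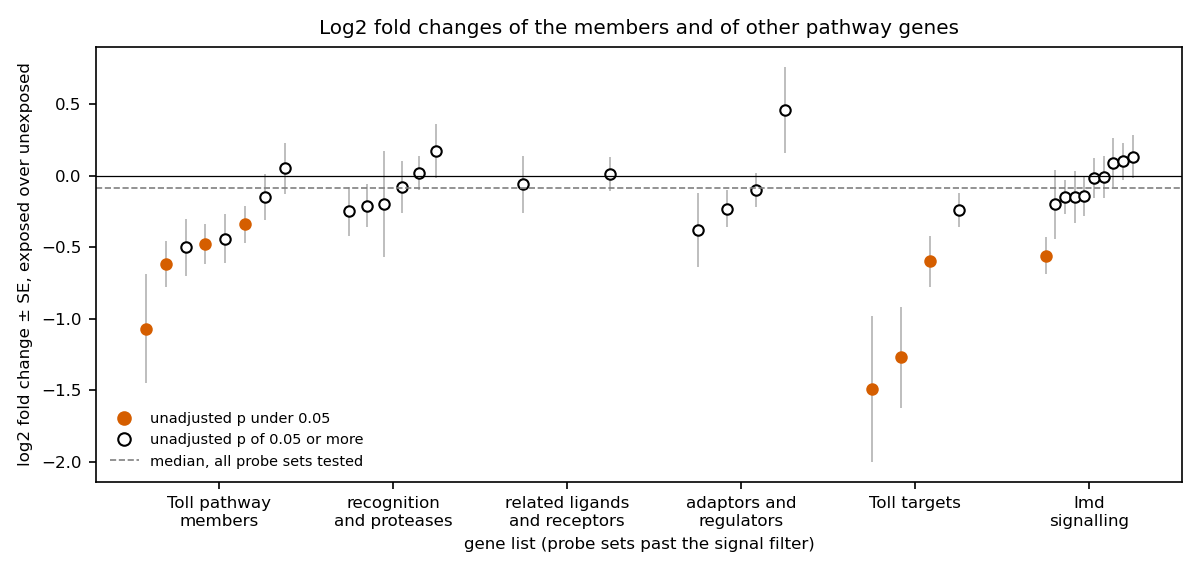
Log2 fold change with its standard error (y axis) of each probe set past the signal filter, by gene list (x axis), filled where the unadjusted p was under 0.05. The filled points are 4 of 8 Toll pathway members, none of 12 other pathway genes, 3 of 4 targets and 1 of 10 Imd genes. Over all probe sets tested, 2.12% were lower and 0.376% higher by the same rule. The dashed line is the median of all probe sets tested, -0.09.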

How the data were processed

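RNA of 6 pools of Canton-S males (3 exposed, 3 unexposed) was hybridized to Affymetrix Drosophila version 1 arrays. The authors deposited a linear intensity for each probe set on each array. GCOS 1.2 is named in the submitters' processing notes and dChip also in the methods, and which summary the deposited intensity holds is not given in the sources used here. Before log2 transformation, a floor of 1 was set and no further normalization was applied. The 44 control probe sets were left out of tests. Probe sets that reached 100 on 3 or more arrays, the study's filter, entered a limma fit (version 3.58.1, R 4.3.3, functions lmFit and eBayes) blocked by replicate number, with Benjamini-Hochberg adjustment over all probe sets tested. The code was tested on simulated arrays. The paired Cyber-T test was recoded here, with a sliding window of 101 and a prior weight of 10, settings that the methods do not name.

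The pairing comes from the methods, by which exposed and unexposed groups were collected in parallel. Arrays numbered alike deviated together from their group means (r = 0.844, 0.76 and 0.78), but r was also 0.814 and 0.806 between replicates 2 and 3 of different treatment, so the arrays of replicates 2 and 3 do not show their own pairing. P-values of the blocked fit measure the spread of the differences within pairs of these pools, with the variance of a probe set drawn toward that of others. Names come from the platform annotation, updated through RefSeq gene IDs: a single gene is given for 12444 probe sets, several for 327 and none here for 1239. Members and gene lists were chosen with earlier results of these data known. The text names all member probe sets, listed genes with an unadjusted p under 0.05 and the same sign in all pairs, and the highest and lowest of each list among genes past the filter. Names beyond this rule, picked with their values in view, are marked. Alternatives varied the block, scaling, filter, floor, variance model, test and replicates used. No sequences or coordinates are given, as no table of them in the array's build was used here. The number of arrays limits the precision.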

Additional observations from a re-analysis of the deposited data

How the results depend on the processing

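Of 14 alternatives, 6 leave a fold change as it is by construction and 1 repeats another's value, so 7 could move a fold change. For SPE, nec, Tl, cact, dl and pll 142881_at, lower in all pairs, only median centring and quantile normalization could turn the sign. Their sign under the rest of the 7 was fixed in advance. SPE, nec, Spn88Eb, Tl, cact, dl, Dif and pll 142881_at were negative under these 7. Under 6 of the 7, spz (0.01 without replicate 1) and pll 142067_at (0.06 with signals under 50 set to 50) were negative and psh was positive (-0.11 without replicate 2). An unadjusted p under 0.05 was kept by nec under 13 of 14, by SPE under 11, by Spn88Eb under 9, by dl under 8 and by Tl under 4, and by Drs, Mtk, BomS5 and Rel under 12, 10, 9 and 10. Also cact and pll 142881_at, not past it with all pairs, had one under 8 and 3. The causes of these changes were not tested.

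With no replicate block, the number of member probe sets lower at an unadjusted p under 0.05 was 0 in place of 4, with 10 of all probe sets lower and 0 higher in place of 175 and 31. After median centring it was 2, the median of the members -0.34 and the numbers over all probe sets 95 lower and 135 higher. Quantile normalization gave 120 lower and 146 higher, and 3 members lower. Centring and quantile normalization moved the median over all probe sets to 0.03 and 0.00, in place of -0.09. No filter gave 297 lower and 76 higher, with 1 other pathway gene (spirit) lower. Requiring a signal of 100 on all 6 arrays gave 5 of the 7 members then tested and 153 of all probe sets lower. With signals under 50 set to 50, 6 members and 224 of all probe sets were lower. Cyber-T gave 281 lower and 1 with an adjusted p under 0.05. With the replicate 1 arrays as a separate level, 392 were lower and 75 higher. Replicates 2 and 3 alone with no block, added after the data were seen, gave 305 lower, 216 higher, 3 with an adjusted p under 0.05 and 1 other pathway gene higher.

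Leaving out 1 replicate gave 1 to 4 members lower, 97 to 255 probe sets lower, 14 to 128 higher, 0 to 2 with an adjusted p under 0.05 and 0 to 1 other pathway genes higher. No member had an adjusted p under 0.05 under any alternative run. Signals near those of the foreign controls limit Dif, dl, pll 142067_at and, on replicate 1 arrays, spirit, tub, Spn27A, Fadd and Lsp2. On exposed 1, Tl (104), pll 142881_at (96.9) and GNBP3 (84.8) also lay not far above the foreign control median (80.1). The same held for Traf6 on unexposed 1 (89.0 against 81.0).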
